A study of Rattus norvegicus with 35 samples.

Results

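The data describe the first day after a contusion of the rat spinal cord, set against the first day after the same surgery without the contusion. All samples whose labels gave injury or sham surgery at 1 day were taken, which gave 10 of the 35 arrays of the series, 5 of LS1 and 5 of SH1. LS1 rats were adult female Wistar rats that had a laminectomy at thoracic level 8 and a contusion of 200 kdyne. SH1 rats were of the same strain and sex and had the laminectomy alone, so the removal of bone, the anaesthesia and the opening of the back were shared by both groups. Uninjured rats without surgery (CT, n = 5) and the same pair of groups at 3 days (LS3, SH3) and at 7 days (LS7, SH7) served as background. Each array held the total RNA of the cord at the lesion of 1 animal, labelled with the dye Hy3 and hybridized to LNA probes. Every array carried 1766 names, of which 349 named a rat microRNA, 308 a mouse and 534 a human one without a rat name, 119 a viral one and 430 a miRPlus sequence of the manufacturer. Levels are given on the log2 scale after variance stabilization (VSN), and a change is the mean of LS1 minus the mean of SH1.

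A microRNA is a short RNA that pairs through its seed, bases 2 to 8, with messenger RNAs and lowers their translation and stability. The first day after a cord contusion is known for bleeding into the tissue, the entry of neutrophils, the activation of microglia and the death of neurons and oligodendrocytes at the impact. Several microRNAs are nearly private to 1 cell type, so that the RNA of a piece of cord carries a trace of its cells: miR-223 of myeloid cells, miR-144 and miR-451 of red cells, miR-124 of neurons and miR-219 of oligodendrocytes. In bulk tissue, more cells of a type and more of the microRNA per cell cannot be told apart.

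The mature rat sequences of the microRNAs on which the comparison turned are printed with the seed in capitals, from RefSeq on build GRCr8, in which 12 of the 12 names looked up were matched. The first set is that of leukocyte microRNAs, among which miR-155 carried only a mouse name on the array and is shown as the rat sequence of that name.
miR-223: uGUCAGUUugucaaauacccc
miR-142-3p: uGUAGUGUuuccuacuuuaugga
miR-155: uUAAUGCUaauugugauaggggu
The second set holds the 2 strands of the miR-21 hairpin (chromosome 10), which share no seed, and the red cell pair miR-144 and miR-451, neighbours on chromosome 10.
miR-21: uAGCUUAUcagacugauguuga
miR-21*: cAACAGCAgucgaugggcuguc
miR-144: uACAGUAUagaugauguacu
miR-451: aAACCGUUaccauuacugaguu
The third set holds microRNAs known from embryos and imprinted genes. Probes of miR-291a-5p and miR-675-5p stood among the strongest differences, and miR-300-5p was among the 10 rat names with the smallest p. For miR-294 the probe among the strongest differences was the mouse-named miR-294*. The miR-294 printed is the rat sequence of that name, for which no change is given here. In mice, miR-291a, miR-291b and miR-294 belong to the cluster of embryonic stem cells, miR-675 is cut from the imprinted H19 RNA, and miR-300 lies in the imprinted Dlk1-Dio3 cluster.
miR-291a-5p: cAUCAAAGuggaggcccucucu
miR-294: cUCAAAAUggaggcccuaucu
miR-675-5p: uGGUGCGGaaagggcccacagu
miR-300-5p: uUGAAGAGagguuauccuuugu
The last is the oligodendrocyte microRNA miR-219-5p.
miR-219-5p: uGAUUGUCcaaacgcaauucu
No 2 of the 12 sequences had the same seed. The longest run shared by any pair was the 10 bases of miR-291a-5p and miR-294 (uggaggcccu), which lie at chr1:74879804-74879825 and chr1:74878137-74878157 on the minus strand. Whether probes of that cluster read each other's RNA was not tested.

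Before the comparison, the 10 arrays were compared as arrays. LS1 arrays detected 794 ± 179 names and SH1 arrays 840 ± 186 (SD, n = 5 each), and the median signal was 10.3 to 19.1 times the SD of the negative controls in LS1 and 9.67 to 24.4 times in SH1. Synthetic spike-in RNAs averaged 9.10 ± 0.70 (log2) in LS1 and 11.11 ± 1.19 in SH1 (SD, n = 5 each), a difference of -2.01 with p = 0.024 in a 2-sided exact permutation test over all splits of the 10 animals and 0.12 after adjustment over the 5 array measures. The highest spike-in levels, 12.11 and 12.35, were those of SH1 replicates 3 and 4, which were scanned on the same day. SH3 replicate 4, scanned on that day too, was at 11.80, and the other SH1 arrays lay between 9.54 and 11.23. Whether that day set the spike-in level was not tested. No scan day held arrays of both groups, so that the day of scanning and the contusion cannot be told apart within these 10 arrays. A fit of all 35 arrays with scan day as a block, which links the groups through other arrays, was added after the data were seen. It is given for some of the names. SH1 replicates 1, 2, 4 and 5 and LS1 replicates 3 and 4 each correlated highest with an array of the other group. For SH1 replicate 1 the highest r was 0.953 with the other group and 0.952 with its own. For SH1 replicate 5 these were 0.977 and 0.972, and for LS1 replicate 3 they were 0.985 and 0.981. Over the 719 names tested, the levels of SH1 replicate 4 correlated at 0.985 with LS1 replicate 3 and at 0.978 with LS1 replicate 5. They correlated at 0.951, 0.946 and 0.880 with LS1 replicates 1, 2 and 4, and at 0.833 to 0.908 with the 4 other SH1 animals. LS1 replicate 4 correlated at 0.960 with SH1 replicate 2 and at 0.953 with SH1 replicate 1, but at 0.866 to 0.942 with the other LS1 animals. The median r between the groups was 0.931, beside 0.930 within SH1 and 0.949 within LS1. The number of calls and some of the changes are therefore given with and without SH1 replicate 4, whose removal moved that number. No array was removed from the comparison itself. SH1 replicate 3 was the highest of the 10 in the skeletal muscle microRNAs, with 8.91 for miR-133a against a highest LS1 value of 7.75. Markers of cord tissue were present throughout, since miR-124 lay between 13.18 and 14.14 and miR-219-5p between 11.81 and 13.09 in all 10 animals.

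At day 1 the contused cords differed from the sham cords mainly by higher values, but no microRNA passed the adjusted test. Of 719 names tested by limma, 0 had an adjusted p under 0.05 (0.0%), the smallest being 0.0593. At an unadjusted p under 0.05, 67 names were higher (9.32%) and 4 were lower (0.556%) in LS1, which makes 71 in all (9.87%). The median change of all names tested was 0.15 with a median standard error of 0.33, and 470 of the 719 changes (65.4%) were above 0. The sign of this median depended on scaling, since it ran between -0.13 and 0.16 in the scalings without spike-ins. So did the excess of higher names at an unadjusted p under 0.05. It was 19 higher and 8 lower of 208 tested with normexp and quantile normalization. With 75th percentile scaling over names detected on all arrays it was 37 and 13 of 539. With VSN without background subtraction it was 73 and 5 of 691. Among the 67 higher names the changes ran between 0.59 and 2.42 with a median of 1.06, and 64 of them were above 0 in each of the 9 scalings tried, the exceptions being mghv-miR-M1-5, hsa-miR-625* and mmu-miR-155. Rank Product, which ranks the changes within all pairs of an LS1 and an SH1 animal and uses no error per microRNA, called 16 names higher and 2 lower (2.5% of the 719).

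**Figure D1:**
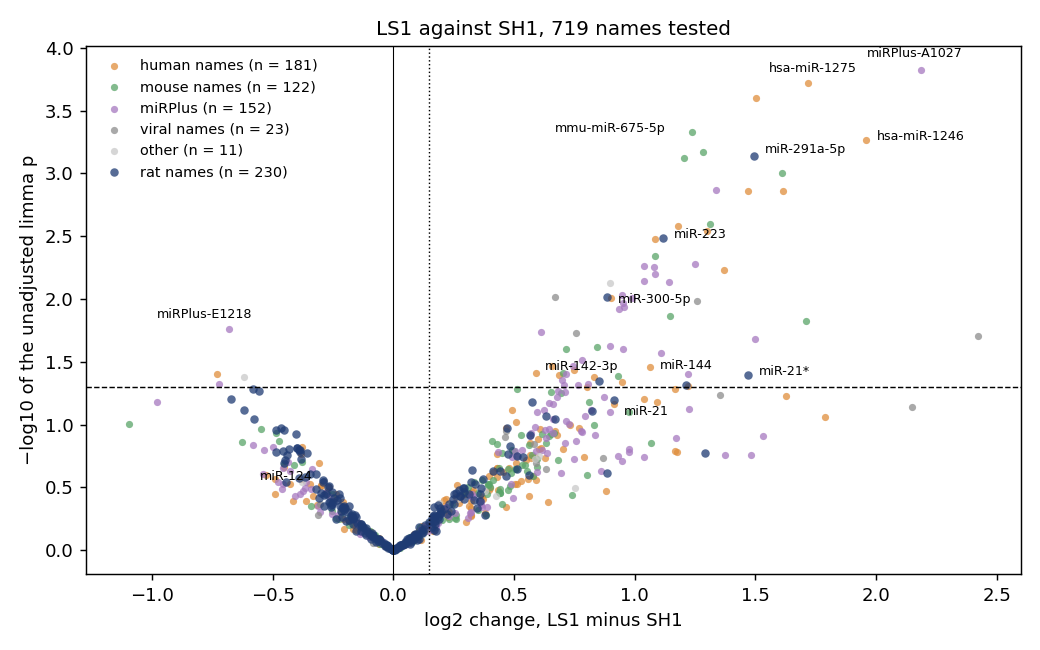
Change of each of the 719 names (x axis, log2, LS1 minus SH1) against the −log10 of the unadjusted limma p (y axis), coloured by the species in the name. The dashed line marks the unadjusted limit of 0.05 and the dotted line the median change of 0.15. Of the 71 names above the dashed line, 67 lie to the right and 6 of those carry a rat name.

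The number of calls turned on 1 sham animal. Without SH1 replicate 4 the same limma test called 63 names (8.76%), all higher in LS1, whereas leaving out any other of the 10 animals gave 0 calls. Without LS1 replicate 4 the count at an unadjusted p under 0.05 was 142 instead of 71, with 121 higher and 21 lower. When limma weighted the arrays by their scatter, 87 names were called (12.1%), 86 higher and 1 lower, with 57 of them shared with the 63. In that fit SH1 replicate 4 had the lowest weight of the 10 arrays (0.29) and LS1 replicate 1 the highest (4.43). Of the 67 higher names, SH1 replicate 4 was the highest sham animal in 59 and reached the lowest LS1 animal in 49, against 1 to 8 for the other SH1 animals. Its mean level over those 67 names was 8.31, inside the 8.19 to 8.79 of the LS1 animals, while the other SH1 animals lay between 6.81 and 7.27. Since the 67 names were picked by the same animals, these values only describe where the overlap came from.

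**Figure D2:**
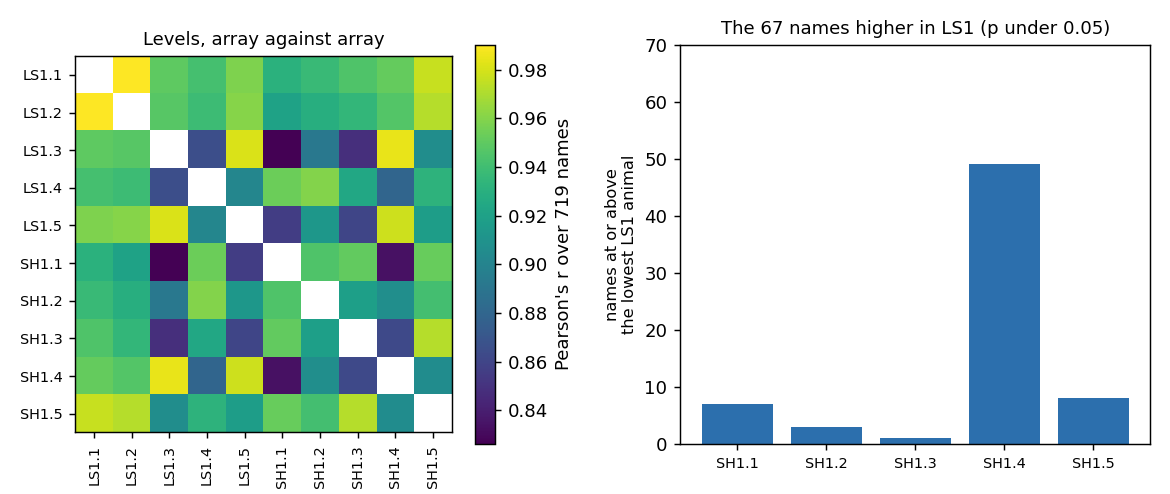
Left, Pearson's r between the levels of any 2 of the 10 arrays over the 719 names, with LS1 before SH1 on both axes. Right, for each SH1 animal, how many of the 67 names higher in LS1 were at or above the lowest LS1 animal (y axis): 49 for SH1 replicate 4 and at most 8 for the others.

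The names behind the higher values were largely not rat names. Rat names made up 230 of the 719 tested, and 6 of them (2.61%) were higher at an unadjusted p under 0.05, against 61 of the 489 others (12.5%). Their median change was 0.00, with 115 above 0, while that of the other names was 0.32, with 355 above 0. By class, the share that was higher was 17.1% of 152 miRPlus names, 9.94% of 181 human names, 9.84% of 122 mouse names and 17.4% of 23 viral names. A probe without a rat name can still bind a rat RNA of like sequence, and what these probes bound was not tested.

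Of the 6 rat names that were higher, 2 were leukocyte microRNAs. miR-223, a myeloid microRNA abundant in neutrophils, had 10.01, 10.29, 9.14, 10.82 and 9.94 in LS1 animals and 8.86, 8.47, 9.28, 8.88 and 9.11 in SH1 animals. Only LS1 replicate 3 fell within the sham range. The means were 10.04 ± 0.61 in LS1 and 8.92 ± 0.31 in SH1 (SD, n = 5 each), a change of 1.12 ± 0.31 (SE) or 2.17-fold, with an unadjusted limma p of 0.0033 and an adjusted p of 0.14. Its change lay between 0.66 and 1.14 in the 8 scalings that do not use the spike-ins, and was 0.58 ± 0.61 (SE, adjusted p = 0.69) with scan day as a block. The SH1 animals in turn lay 1.28 above the 5 CT animals on average, which had 6.85 to 8.24 and did not overlap with them. miR-142-3p, made in all blood-forming lineages, had 11.44, 11.79, 10.39, 11.03 and 10.60 in LS1 and 10.83, 9.09, 10.30, 9.85 and 10.90 in SH1. The groups overlapped, with a change of 0.85 ± 0.39 (SE) and an unadjusted p of 0.045, and the change was 0.29 ± 0.62 (SE) with scan day as a block.

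The mouse-named probe of miR-155, a microRNA induced in activated leukocytes and microglia, was detected in 5 of 5 LS1, 3 of 5 SH1 and 0 of 5 CT animals. Its levels were low, 5.07 to 5.53 in LS1 and 3.71 to 5.36 in SH1, and the change of 0.70 ± 0.31 (SE) had an unadjusted p of 0.039. In the lowest of the 9 scalings the change was -0.05. Over the whole list of 9 myeloid and lymphoid microRNAs, 3 were higher and 0 lower at that limit, against 9.32% and 0.556% of all names, and 0 had an adjusted p under 0.05. The list's median change was 0.36, beside 0.15 for all names, and stayed between 0.04 and 0.38 in the scalings without spike-ins. The remaining members ran between -0.16 for miR-342-3p and 0.57 for miR-142-5p, with miR-146a, a brake on NF-kappaB signalling, at 0.06 ± 0.29 (SE). The summed level of the list reached 11.72 to 12.84 in LS1 and 11.11 to 12.17 in SH1.

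miR-21, which rises in many injured tissues, was high in all LS1 animals but not separate from sham. It measured 11.04, 10.86, 10.62, 12.08 and 10.35 in LS1 and 11.45, 8.86, 10.38, 10.11 and 9.58 in SH1, so that SH1 replicate 1 exceeded 4 of the 5 LS1 animals. The change was 0.91 ± 0.45 (SE), 1.88-fold, with an unadjusted p of 0.064. All LS1 animals exceeded all CT animals, which lay between 8.77 and 9.67. The opposite strand miR-21* had 7.87, 7.50, 8.55, 6.63 and 8.50 in LS1 and 5.02, 6.59, 5.04, 8.93 and 6.13 in SH1. Here the single high sham value was that of SH1 replicate 4, above every LS1 animal. With it the change was 1.47 ± 0.65 (SE, unadjusted p = 0.040, adjusted p = 0.48), and without it 2.12 with an adjusted p of 0.0092. SH1 replicate 4 was singled out because its removal moved the calls, so the last p only describes its weight.

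Red cell microRNAs were higher on average but spread widely in both groups. miR-144, an erythroid microRNA, had 12.57, 13.26, 10.98, 11.20 and 12.40 in LS1 and 12.34, 10.18, 10.04, 9.88 and 11.92 in SH1, so that both groups held high and low animals. The change was 1.21 ± 0.56 (SE) with an unadjusted p of 0.048 and a Rank Product percentage of false positives of 0.039, and it was 0.64 ± 1.13 (SE) with scan day as a block. miR-451, made from the same primary transcript, lay between 12.28 and 13.77 in LS1 and between 11.84 and 13.89 in SH1, a change of 0.36 ± 0.42 (SE, unadjusted p = 0.41) that was -0.15 ± 0.92 (SE) with scan day as a block. All 4 listed members were above 0 with a median of 0.77, between 0.21 and 0.77 in the scalings without spike-ins, but only miR-144 had an unadjusted p under 0.05. Their summed level ran from 12.79 to 14.52 in LS1 animals and from 12.18 to 14.23 in SH1 animals, and these ranges overlapped over most of their length. How much of the leukocyte values came with this blood was not tested.

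**Figure D3:**
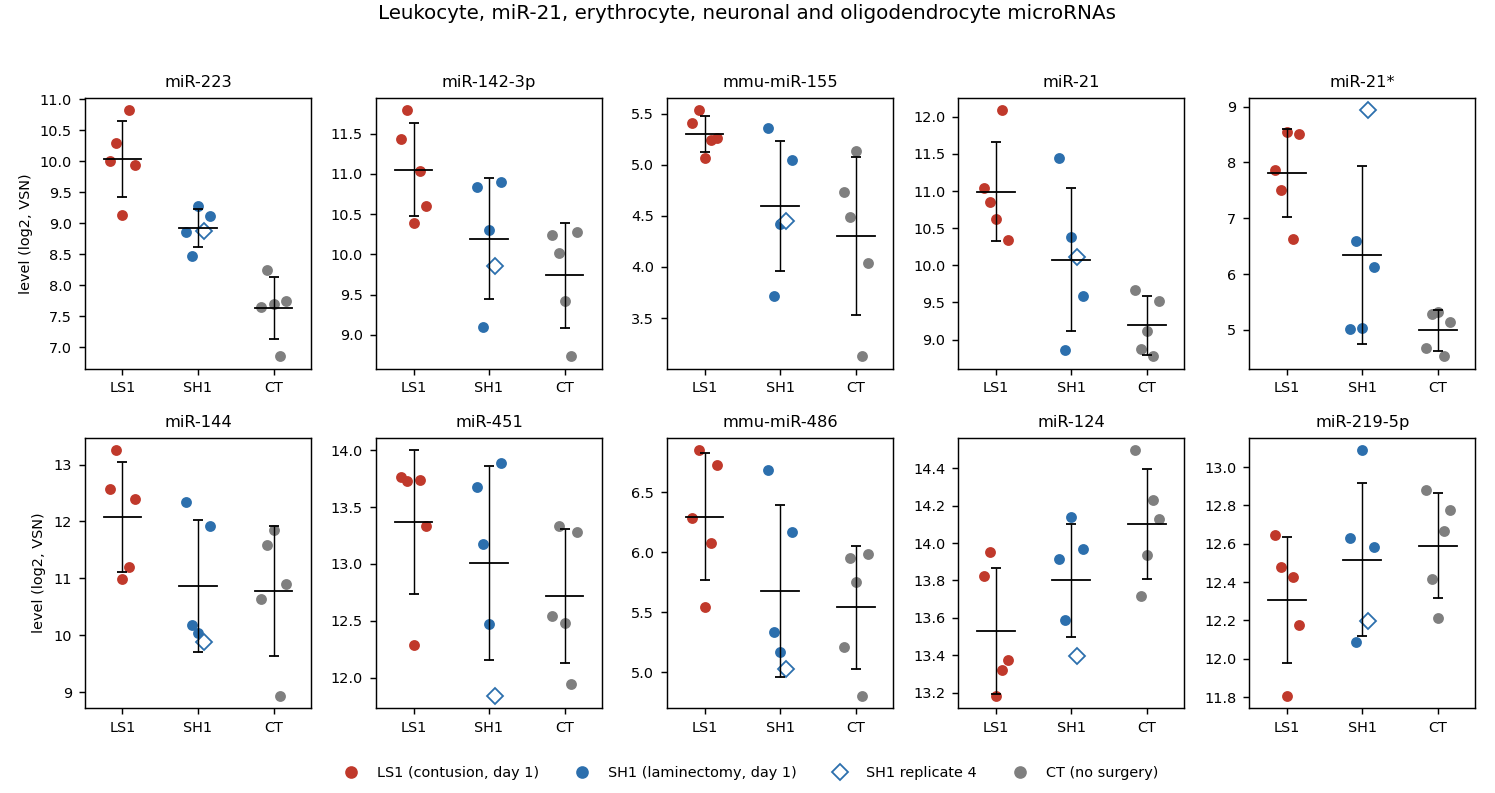
Levels per animal (y axis, log2 after VSN, scaled separately in each panel) of leukocyte, miR-21, red cell, neuronal and oligodendrocyte microRNAs in LS1, SH1 and CT. Bars are means and SD of 5 animals. miR-223 separates LS1 from SH1 except for 1 LS1 animal at 9.14, while the other panels overlap.

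No neuronal or oligodendrocyte microRNA differed between the groups at an unadjusted p under 0.05. miR-124, the main neuronal microRNA, had 13.83, 13.95, 13.18, 13.32 and 13.38 in LS1 and 13.91, 13.59, 14.14, 13.40 and 13.97 in SH1, a change of -0.27 ± 0.26 (SE, unadjusted p = 0.32). miR-9, of neurons and neural progenitors, had a change of -0.25 ± 0.30 (SE). Of 13 neuronal microRNAs tested, 11 had a change below 0 and 0 had an unadjusted p under 0.05. The list's median was -0.25, between -0.43 and -0.23 in the scalings without spike-ins and 1.45 in the spike-in scaling. The lowest member was miR-128 at -0.49 ± 0.29 (SE). miR-219-5p, needed for the maturation of oligodendrocytes, had 12.65, 12.48, 11.81, 12.43 and 12.17 in LS1 and 12.63, 12.09, 13.09, 12.20 and 12.58 in SH1, a change of -0.21 ± 0.27 (SE). The other 3 oligodendrocyte microRNAs, miR-219-2-3p and both strands of miR-338, had changes of 0.10 to 0.12. The standard errors of the neuronal members, 0.23 to 0.34, limit the size of change that 5 animals a group could show.

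Of the 20 lists, 16 had no member at an unadjusted p under 0.05. Over all lists 8 of the 128 members tested were under that limit, beside 71 of all 719 names (9.87%). The lists held 1 to 23 tested members, so a short list without such a member says little. The let-7 family, which restrains growth genes, had a median change of -0.01 over 9 members, and the miR-30 family 0.01 over 7. miR-29a, miR-29b and miR-29c, which restrain collagen genes, had changes of -0.25, -0.49 and -0.45, with a lowest unadjusted p of 0.16. miR-34a and miR-34c, induced by p53, had changes of -0.45 ± 0.27 and -0.67 ± 0.33 (SE), and the 3 members of that family had a median of -0.45. The 10 members of the miR-17-92 cluster and its paralogues had a median of 0.14, beside 0.15 for all names, and the 3 endothelial microRNAs a median of 0.03. The 23 tested microRNAs of the Dlk1-Dio3 cluster in the list ran between -0.62 and 0.44 with a median of -0.13. That list left out miR-300-5p, placed in the same cluster above, which had a change of 0.88 at an unadjusted limma p under 0.05. miR-210, the hypoxia microRNA, had a change of -0.18 ± 0.32 (SE). In the spike-in scaling all 20 list medians were above 0, between 0.91 and 2.63, as was the median of all names at 1.67.

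**Figure D4:**
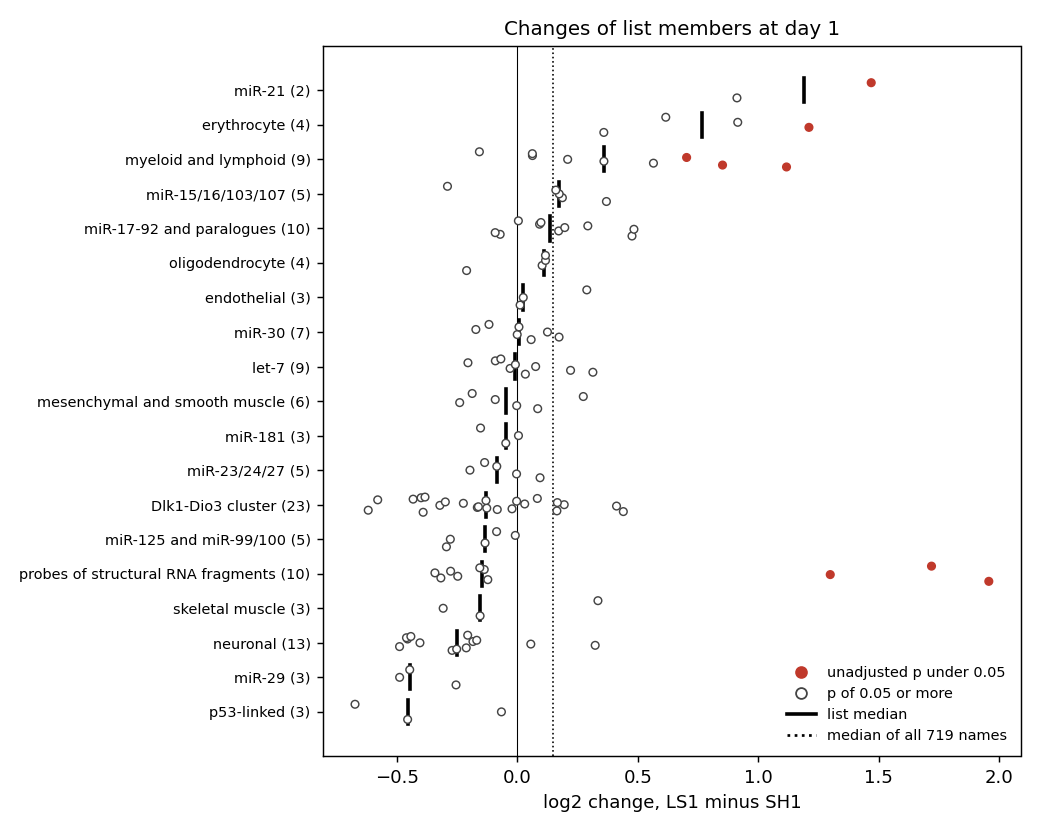
Changes (x axis, log2, LS1 minus SH1) of the tested members of each list with 2 or more of them, with the number tested in brackets. Each point is 1 microRNA, filled where the unadjusted limma p was under 0.05, and bars are list medians. The 8 filled points belong to the miR-21, red cell, leukocyte and structural RNA lists, beside 71 of all 719 names at that limit.

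Separation of the 2 groups in the main scaling was complete for 12 names (1.67% of 719), and for 0 names the other way (0.0%). In each of the 12 every LS1 animal exceeded every SH1 animal. These names were singled out after their values were seen. In 5 of the 12 the gap between the groups was under 0.05, and without SH1 replicate 4 the count was 69 against 3 the other way. In 9 of the 12 every LS1 animal also exceeded every CT animal. The change was above 0 in each of the 9 scalings for 11 of the 12. Only 1 of the 12, miR-291a-5p, carried a rat name.

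Among them were 3 related probes of the embryonic stem cell cluster. They were picked by their values and not from a list of that cluster. Of its other members only miR-291a-3p is given, so they do not describe the cluster as a whole. miR-291a-5p had 6.05, 5.94, 5.92, 5.40 and 6.16 in LS1 and 3.92, 3.46, 4.52, 5.40 and 4.69 in SH1, where the 2 values printed as 5.40 differed by less than 0.001. It was detected in 5 of 5 LS1 animals, 1 of 5 SH1 and 1 of 5 CT, and its change was 1.50 ± 0.34 (SE, unadjusted p = 0.00073, adjusted p = 0.069). Since 4 of the 5 SH1 values were not above the detection limit, the size of this change depends on the background, and it ran between 0.33 and 1.50 in the scalings without spike-ins. mmu-miR-291b-5p had a change of 1.28 ± 0.29 (SE) with detection in 5 LS1, 1 SH1 and 0 CT animals, which holds the same limit and ran between 0.08 and 1.28. mmu-miR-294* had a change of 1.20 ± 0.28 (SE) with levels of 7.39 to 7.97 in LS1 and 5.95 to 7.21 in SH1. The opposite strand miR-291a-3p, which carries the seed best known from stem cells, had a change of 0.02 and was detected in 1 LS1 and 2 SH1 animals.

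Both probes of miR-675, the microRNA of the H19 RNA, were in the same set. The mouse-named probe miR-675-5p had 9.04, 9.53, 8.77, 9.40 and 9.33 in LS1 and 8.23, 7.32, 7.88, 8.28 and 8.17 in SH1, a change of 1.24 ± 0.27 (SE) or 2.36-fold with an adjusted p of 0.069. SH1 replicate 4, at 8.28, lay next to SH1 replicate 1, at 8.23, and without it the change was 1.31. The human-named probe had 5.81 to 6.30 in LS1 and 4.04 to 5.63 in SH1, a change of 1.50 ± 0.30 (SE).

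The largest of the separated changes was that of miRPlus-A1027, a sequence of the manufacturer with no public identity here. It had 8.66, 9.13, 8.40, 9.01 and 9.26 in LS1 and 6.43, 7.03, 5.65, 8.27 and 6.17 in SH1, 4.55-fold or 2.19 ± 0.42 (SE) with an adjusted p of 0.059. Probes listed here as reading fragments of structural RNA were split. hsa-miR-1246, which matches a small nuclear RNA, had 9.84, 10.20, 9.97, 9.96 and 10.28 in LS1 and 7.57, 8.31, 7.04, 9.88 and 7.64 in SH1, so that SH1 replicate 4 alone lay at the LS1 level. Its change was 1.96 ± 0.44, that of hsa-miR-1275 1.72 ± 0.34 and that of hsa-miR-923, a ribosomal RNA fragment, 1.30 ± 0.36 (SE each). The 7 others of the list ran between -0.34 and -0.12, and the list median was -0.15.

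**Figure D5:**
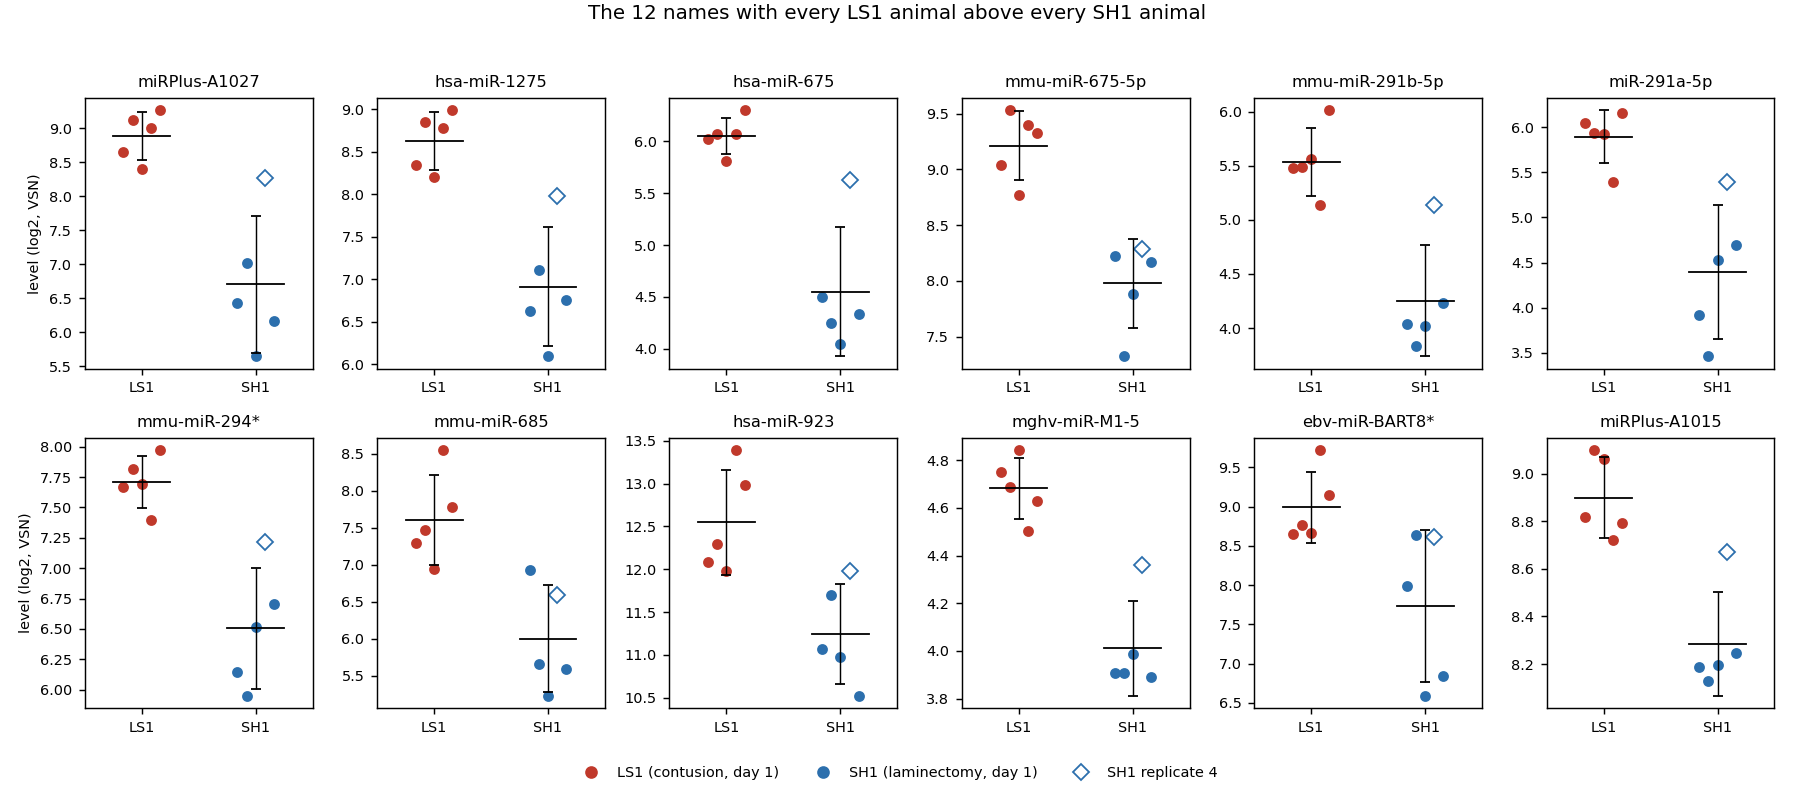
Levels per animal (y axis, log2 after VSN, scaled separately in each panel) of the 12 names in which every LS1 animal lay above every SH1 animal, in order of p. Bars are means and SD of 5 animals and the open diamond is SH1 replicate 4. The lowest LS1 point lies above the highest SH1 point in each panel, by under 0.05 in 5 of them.

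Several of the 12 largest changes overlapped between the groups. In the main scaling the largest change at an unadjusted p under 0.05 was 2.42, for the viral name ebv-miR-BART6-3p, which was detected in 5 LS1 and 2 SH1 animals and lay below miRPlus-A1027 with 75th percentile scaling over names detected on all arrays. It set 6.39 to 9.20 in LS1 against 3.49 to 4.82 in 4 SH1 animals and 9.18 in SH1 replicate 4. mmu-miR-711, hsa-miR-1253, hsa-miR-516a-5p and miRPlus-F1022 had changes of 1.71, 1.61, 1.47 and 1.50, and mmu-miR-685, whose groups did not overlap, one of 1.61. The rat-named miR-300-5p had 9.15, 9.69, 9.55, 9.32 and 9.99 in LS1 and 8.25, 8.62, 8.25, 9.49 and 8.67 in SH1, and its change of 0.88 ± 0.29 (SE) had an unadjusted p of 0.0096. Its partner strand miR-300-3p had a change of -0.04. On the lower side, miRPlus-E1218 had 13.46 to 14.18 in LS1 and 14.14 to 14.86 in SH1 with a change of -0.68 ± 0.25 (SE). hsa-miR-1285, miRPlus-F1009 and the ribosomal probe 5SrRNA-5 had changes of -0.73, -0.72 and -0.62, and these 4 made up all lower names at an unadjusted p under 0.05. Of the rat names with the smallest p, miR-539, miR-196a and miR-34c lay below 0, at -0.58, -0.56 and -0.67, none of them under 0.05 and each above 0 in the spike-in scaling.

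The test of whether the effect of the contusion differed between days was run on all 35 arrays. Against day 3, 0 of 719 names had an adjusted limma p under 0.05 (0.0%), with 83 at an unadjusted p under 0.05. For miR-223 the contused animals exceeded sham by 1.60 at day 3, for miR-21 by 1.49 and for miR-144 by 1.71, beside 1.12, 0.91 and 1.21 at day 1. Against day 7, 424 names differed (59.0%), 403 of them with the lower injury effect at day 7. With scan day as a block 16 names differed, all lower, and miR-21, miR-144 and hsa-miR-1246 were not among them. That direction depended on scaling, because the median difference was -1.46 in the main scaling and 1.07 when arrays were scaled to the 75th percentile of names detected on all of them, so single differences are given relative to this median. miR-21 lay 2.83 above it, between 1.85 and 3.58 in the 8 scalings, since its injury effect was 2.28 at day 7. miR-144 lay 2.98 below it and hsa-miR-1246 1.91 below it in the main scaling, and both were below the median in all 8. miR-223 lay 0.75 above it, with -0.15 to 1.55 across the scalings.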

How the data were processed

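MicroRNAs of 35 rats were measured on Exiqon miRCURY LNA arrays, 1 animal per array. The deposited scanner files hold the green (532 nm) and red (635 nm) intensity of 9360 spots per array as foreground and background medians, made by the authors without normalization, with 1 file written with decimal commas. The deposited table holds log2 values after the authors' VSN. Its rank correlation with the green foreground was 1.0 on all arrays but LS7 replicate 4 (0.912) and SH7 replicate 1 (0.938). Why these differed was not tested. The files' flag score per spot, per the file headers, marks bad spots as -100 and spots not found as -50. What the red channel held is not given in the sources used here.

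Local background was subtracted from the green foreground, bad spots were left out, and VSN, written in Python 3.11.15 from its likelihood with 0.9 of the spots kept, was fitted over all 35 arrays. The value of a name was the median of its spots, mostly 4. Detection asked that a share above 0.5 of a name's spots lie over a limit set per array, 2 SD above the mean of 28 negative control spots. Names detected in at least 3 of 5 animals of a group (816) and with an interquartile range above 0.5 (719) were tested by limma 3.58.1 in R 4.3.3 on the 10 arrays, with Benjamini-Hochberg adjustment at 0.05. Differences between days were contrasts in 1 fit of 7 groups. Rank Product used 100 permutations. The number of arrays and the signal over background limit the precision. Steps were tested on simulated data.

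The names given were the 12 largest changes in each direction with an unadjusted p under 0.05, the 10 rat names with the smallest p, Rank Product calls, examples of lists and 6 cell type microRNAs. Members and lists were chosen with earlier results of these data known. Alternatives changed the normalization, spots, filters, model and animals.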

Additional observations from a re-analysis of the deposited data

Results flagged for a closer look

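Single animals lay far from the other 4 of their group in 6 of the 70 groups of 5 values held by the 35 names given, by Dixon's test, which chance meets in about 1 of 20 groups. In SH1 replicate 4, ebv-miR-BART6-3p was at 9.18 and hsa-miR-675 at 5.63, next to 4.82 and 4.50 in the nearest sham animal. In LS1 replicate 4, miRPlus-E1055 was at 4.19, mmu-miR-582-5p at 6.06 and sv40-miR-S1-5p at 4.36, the first and second being the highest of the group and the third the lowest. In LS1 replicate 3, hsa-miR-1285 was the lowest at 9.22.

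The effect of the contusion differed between day 7 and day 1 for 22 of the names given, with an adjusted limma p under 0.05 for the difference. With scan day as a block 0 of these 22 had an adjusted p under 0.05, with 16 called among all names. Their signs follow the main scaling, in which the median difference of all names was -1.46, and the direction over all names turned in another scaling. The difference, day 7 minus day 1, was above 0 for miR-21 (1.37) and miRPlus-E1055 (2.39). Among cell type microRNAs it was -4.44 for miR-144, -2.69 for miR-451, -2.35 for miR-124 and -2.49 for miR-219-5p. For the rat names miR-291a-5p, miR-21* and miR-300-5p it was -1.83, -1.78 and -2.42. For the human names hsa-miR-1246, hsa-miR-1275, hsa-miR-1253, hsa-miR-675, hsa-miR-516a-5p, hsa-miR-1285 and hsa-miR-637 it was -3.37, -2.71, -4.27, -1.64, -3.14, -1.65 and -2.12. For mmu-miR-711 and mmu-miR-685 it was -1.4 and -1.75, and for ebv-miR-BART6-3p -2.16. For miRPlus-A1027, miRPlus-E1093 and miRPlus-F1170 it was -1.74, -2.33 and -2.15.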

How the results depend on the processing

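Between LS1 and SH1, the 0 calls became 3 with the authors' deposited values, 1 and 2 with 75th percentile scaling over names detected on all arrays and over all names, 628 with spike-in scaling, 6 with the ratio to the red channel, 4 without spots not found, 3 with detection at 3 SD, 8 with detection in all 5 animals, 1 with rat names only, 3 with all 7 groups in 1 fit, 87 with array weights and 18 by Rank Product. Leaving out 1 animal gave 0 to 63 calls, the 63 without SH1 replicate 4. The 424 names that differed between day 7 and day 1 became 175 with deposited values, 53 with normexp, 148 with rat names only and 16 with scan day as a fixed block. The direction of most calls turned with 75th percentile scaling over names detected on all arrays (250 names, 249 higher and 1 lower) and with the red ratio (43 names, 26 higher and 17 lower), although the median difference with the red ratio was still -0.34, and leaving out 1 animal gave 362 to 484. For day 3 the 0 calls became 586 with spike-in scaling and 113 with array weights, and stayed 0 without any 1 animal. The cause was not tested for any of these. The authors describe a paired t-test, while the main fit took no pairs because the groups held different animals. Correlations of same-numbered deviations ran between -0.66 and 0.24, which cannot show whether replicate numbers paired the animals. The replicate block gave 0 calls for day 1, 430 for day 7 and 0 for day 3.

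Spike-in scaling turned the change to 1.10 for hsa-miR-1285, 0.56 for miRPlus-F1009, 1.15 for miRPlus-E1218, 1.21 for 5SrRNA-5, 0.78 for miR-539, 0.61 for miR-196a, 0.72 for miR-34c, 1.56 for miR-124 and 1.62 for miR-219-5p. With scan day as a fixed block in the fit of 7 groups, an alternative added after the data were seen, miR-451 had a change of -0.15, miR-223 one of 0.58, miR-142-3p one of 0.29 and miR-144 one of 0.64, while miR-21* and ebv-miR-BART6-3p had 2.40 and 3.36. In that fit mmu-miR-711 and miRPlus-F1022 had changes of 2.36 and 2.21, and miR-124 and miR-219-5p had -0.67 and -0.45. Without 1 animal, the group difference ran between -1.44 and 2.24 in the median signal over negative control SDs, between -120.85 and 11.6 in names detected and between -2.40 and -1.70 in spike-in level.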
